A study of Mus musculus with 6 samples.

Results

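The genes described here serve protein folding, stress signalling and export of collagen and other secreted proteins at the endoplasmic reticulum (ER). They were 46 genes named by symbol and sorted by role into 6 groups, and all 46 were found among the 24346 gene symbols of the files. All 46 had at least 1 FPKM (fragments per kilobase of transcript, scaled to the mapped fragments of the library) in at least 3 of the 6 libraries, so none was lost to the filter on low values. RNA came from the mandibular condylar cartilage of mice, the growth cartilage of the jaw joint. Controls carried the genotype label fl/fl, the usual notation for a floxed gene, with 3 libraries. The 3 mutant libraries came from mice with a deletion of Ihh, the gene for Indian hedgehog, in craniofacial neural crest cells, which give rise to the facial skeleton. The labels name neither the Cre driver nor age and sex, although the series' design text says that mutants were checked for expression of Ihh, Cre and Tomato. Nothing in them ties libraries to separate animals. The p-values therefore describe only how these 6 samples spread, and an unknown part of that spread may be technical. By the sex-linked transcripts given below, control 3 did not come from the same animals as controls 1 and 2. Where 3 values are given for a group, they are those of its libraries 1, 2 and 3.

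Secreted proteins enter the ER through the Sec61 channel and fold there with the help of chaperones and of protein disulfide isomerases, which form and rearrange disulfide bonds. When unfolded proteins accumulate, the sensors Ern1 (IRE1), Eif2ak3 (PERK) and Atf6 start the unfolded protein response, in which Xbp1, Atf6 and Atf4 raise the transcription of chaperones and degradation factors. Folded cargo leaves in vesicles coated by COPII, and receptors for the KDEL signal return escaped chaperones from the Golgi. Cells that make cartilage or bone matrix export collagen in bulk, and procollagen is a cargo that needs Mia3 (TANGO1) and particular COPII subunits such as Sec23a and Sec24d.

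Relative scaling totals, read from the spacing of low values, lay between 0.993 and 1.33 of control 1, and the absolute number of fragments was not known. As a gauge of background, the 90th percentile of 1102 olfactory receptor genes, which are silent in most tissues, was 6.49 to 8.58 FPKM, and 3 of the 46 genes (Ern1, Atf6 and Trib3) lay below that range in every library. The deleted gene Ihh measured 3.73, 2.51 and 3.74 FPKM in the controls against 2.18, 2.33 and 2.66 FPKM in the mutants (limma adjusted p = 0.724), itself within background. The 10 chondrocyte markers had a summed level of 368 to 418 FPKM in controls and 176 to 207 FPKM in mutants. Of these 4 fell (Acan, Col9a1, Col9a2 and Hapln1) and none rose, Comp had all mutants above all controls (1.56, not called), and Matn1 lay under the background gauge in every library and at 0 in mutant 3. The sum of 12 skeletal muscle markers was 2793 to 6432 FPKM in controls and 11960 to 21830 FPKM in mutants, with all 12 positive in fold change and 6 called, and that of 8 endothelial markers 70.6 to 129 and 188 to 231 FPKM, with 2 called. Among 7 fibroblast and osteogenic layer markers 1 fell and 1 rose, and no marker of osteoblasts (5), macrophages (8), plasma and B cells (4 tested of 6), erythroid cells (5) or neutrophils (6) was called. None of the markers was at 0 in all libraries. The female-specific transcript Xist was at 29.5 and 29.2 FPKM in controls 1 and 2, and at 0.577 to 0.984 FPKM in control 3 and the mutants. The Y-linked Eif2s3y was at 0.89 and 0 FPKM in controls 1 and 2, at 42.1 FPKM in control 3 and at 38.4 to 47.4 FPKM in the mutants, so that the sexes were not balanced between the groups. The part of these sex-linked and marker levels in the results below was not tested beyond the values given. In bulk RNA fewer cells of a type and less RNA per cell cannot be told apart.

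Mutant and control libraries were compared to find transcripts whose levels differ when Ihh is deleted from neural crest cells. Over the 46 genes, 37 had a negative log2 fold change (49.9% of all genes tested), 3 fell at a Benjamini-Hochberg adjusted p below 0.05 in limma and none rose, with 20 lower and 1 higher at an unadjusted p below 0.05. The 3 were the chaperones Hsp90b1 and Manf and the disulfide isomerase Pdia4. Among all 18715 genes tested 1.24% were called, as 0.465% fell and 0.775% rose, and 6.11% were lower and 7.94% higher at an unadjusted p below 0.05. In 22 of the 46 genes all 3 mutant values lay below all 3 control values, and in 2 they lay above, against 9.4% and 9.77% of all genes tested. Of all tested genes at a mean of 100 FPKM or more, 21.9% had mutants below all controls and 2.7% fell. Of the 46 genes, 14 were at that level. The median log2 fold change of the 46 genes was -0.41, and that of all genes tested 0.00085. Fold changes are differences of log2(FPKM + 1) throughout, a scale that understates changes of genes at low values.

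The summed level of the 46 genes was 3853, 4356 and 4941 FPKM in the controls against 2754, 2998 and 2889 FPKM in the mutants, that is 0.663% to 0.775% of all FPKM in controls and 0.406% to 0.454% in mutants. The sums did not overlap, and control 3 was the highest. Of the 46 genes, 24 had their highest value in control 3 and 19 their lowest in mutant 1. Control 3 was also the control with Xist under 1 FPKM, like the mutants, and in 36 of the 46 genes all mutants lay below control 3 (28% of all genes tested). With both Xist-positive controls left out, which leaves control 3 alone, 40 of the 46 fold changes were negative, with a median of -0.56. With the mean of the muscle markers as a covariate 39 were negative, with a median of -0.34. That mean, in log2 units, was 6.02 to 6.93 in controls and 7.70 to 8.70 in mutants. As the groups did not overlap in it, fits with this covariate cannot tell muscle level and genotype well apart.

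**Figure D1:**
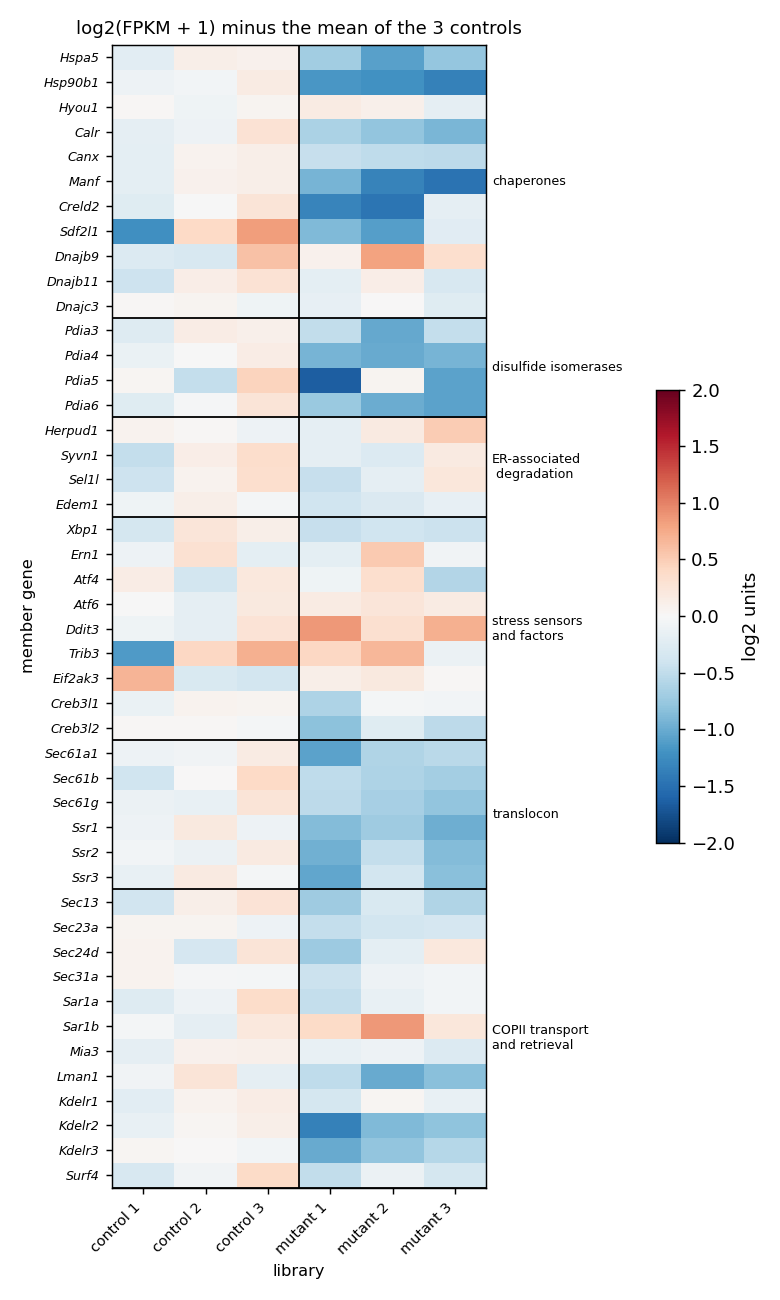
Values of the 46 genes in each of the 6 libraries (columns), as the difference in log2(FPKM + 1) from the mean of the 3 controls, with genes as rows in their 6 role groups. Blue, for values below the control mean, fills the mutant columns of most chaperones, all disulfide isomerases but Pdia5 and all translocon genes, whereas the stress sensors and factors and the degradation genes show both colours.

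Promoter sequence is shown for the genes that carry the ER stress response element (ERSE), a short motif known from the promoters of chaperone genes. It is the site at which Atf6 and Xbp1 act together with the general factor NF-Y. The letters searched were CCAAT, then any 9 bases, then CCACG, on both strands, in windows from 250 bases before to 50 bases after the start of each gene (RefSeq, GRCm38.p6, the same assembly as mm10). The table held windows for 38 of the 46 genes. The element was found in 8 of the 38 and in 0.119% of all 32851 windows. Without an entry were Sec61a1, Atf6, Lman1, Creb3l1, Hyou1, Manf, Ssr2 and Kdelr2. Each stretch runs 5′ to 3′ on the strand of the gene, and capitals mark the fixed letters of the element, which read CGTGG and ATTGG where the match is on the opposite strand.
Hspa5: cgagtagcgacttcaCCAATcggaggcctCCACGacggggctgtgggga
Hsp90b1: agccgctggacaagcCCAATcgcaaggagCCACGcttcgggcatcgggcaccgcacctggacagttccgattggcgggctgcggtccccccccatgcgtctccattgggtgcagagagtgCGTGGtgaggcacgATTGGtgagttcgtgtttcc
Calr: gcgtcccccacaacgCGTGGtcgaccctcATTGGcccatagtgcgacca
Canx: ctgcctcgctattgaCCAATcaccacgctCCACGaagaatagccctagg
Pdia6: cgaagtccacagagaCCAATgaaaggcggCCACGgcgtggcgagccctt
Creld2: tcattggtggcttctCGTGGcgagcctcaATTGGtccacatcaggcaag
Dnajc3: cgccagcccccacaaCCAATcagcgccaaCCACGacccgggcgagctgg
Syvn1: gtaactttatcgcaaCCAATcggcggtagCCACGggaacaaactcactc
In order, they lie at chr2:34772010-34772058 (plus strand), chr10:86705518-86705671 (minus strand), chr8:84847060-84847108 (minus strand), chr11:50325785-50325833 (minus strand), chr12:17266476-17266524 (plus strand), chr15:88819505-88819553 (plus strand), chr14:118937812-118937860 (plus strand) and chr19:6046517-6046565 (plus strand). Hsp90b1 held 2 matches, one on each strand, and the others 1 each. The match nearest to a start was that of Syvn1, from base -44 to -26, and the farthest was the upstream match of Hsp90b1, from base -212 to -194.

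These 8 genes had a median log2 fold change of -0.81 (from -1.24 for Hsp90b1 to -0.09 for Syvn1), and in 5 of them the mutants lay below all controls (9.4% of all genes tested). The 30 genes with a window but no ERSE had a median of -0.26 (from -0.96 for Pdia4 to 0.63 for Ddit3), and in 12 the mutants lay below all controls (again 9.4% of all genes tested). Both are descriptions, since the element was searched with these values known, and the 8 include Dnajc3 and Syvn1, whose groups overlapped. The genes without a window, from Manf (-1.25) to Atf6 (0.19), are in neither set. The sets were also not matched for level. For comparison, the 14 of the 46 genes with a mean of at least 100 FPKM had a median of -0.76. A shorter form, ERSE-II (ATTGG, then any 1 base, then CCACG), was found in Herpud1 and Dnajb11, 2 of the 38 genes, and in 0.0365% of all windows. The unfolded protein response element to which Xbp1 binds (UPRE, TGACGTGG) was found in Kdelr3, Sec23a and Sec24d, 3 of the 38, and in 0.676% of all windows. Both were searched on both strands, and none of the 38 genes searched held more than one kind of element. The ERSE-II of Herpud1 lies in chr8:94386362-94386402 (plus strand) and the UPRE of Kdelr3, read on the opposite strand as CCACGTCA, in chr15:79516363-79516400 (plus strand).
Herpud1: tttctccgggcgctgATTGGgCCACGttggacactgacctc
Kdelr3: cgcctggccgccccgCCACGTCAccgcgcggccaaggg

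Among the 11 chaperones and co-chaperones, 2 fell and none rose, 9 had a negative log2 fold change and the median was -0.74. Of all genes tested 0.465% fell, 0.775% rose and 49.9% were negative. Hsp90b1 (GRP94), the ER member of the Hsp90 family, lies at chr10:86690209-86705509 on the minus strand (mm10) and measured 218, 225 and 263 FPKM in the controls against 104, 101 and 91.1 FPKM in the mutants. The highest mutant lay well below the lowest control, and the mutants were close to each other. Its log2 fold change was -1.24 ± 0.17 (SE; limma adjusted p = 0.0189). Manf, a secreted ER stress protein that binds the chaperone BiP, lies at chr9:106838312-106891979 on the minus strand and measured 39.3, 48.02 and 48.9 FPKM in the controls against 23.4, 17.4 and 15.5 FPKM in the mutants. The groups were separate, with a log2 fold change of -1.25 ± 0.21 (limma adjusted p = 0.0349).

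Both calls depended on single libraries. Dropping control 1, control 2, mutant 1 or mutant 2 raised the adjusted p of Hsp90b1 to 0.0775, 0.0769, 0.0734 and 0.0537. For Manf, dropping control 1, 2 or 3 gave 0.0893, 0.114 and 0.0746, and dropping mutant 1 or 2 gave 0.0706 and 0.108. With the Xist-positive controls left out, control 3 was the only control, and it had the highest control value of both genes. The log2 fold changes were then -1.41 for Hsp90b1 and -1.36 for Manf, a size that this choice of control favours. With the muscle covariate they were -1.50 ± 0.36 and -1.33 ± 0.50 (adjusted p of 0.646 and 0.729). With Xist as a covariate the adjusted p was 0.126 and 0.214. Exons of Hsp90b1 overlap the opposite-strand gene 1810014B01Rik, and 13.8% of the 50-base words of the Hsp90b1 transcript occur in transcripts of other genes, most often in that gene, which measured 9.99 to 25.2 FPKM, and exons of Manf overlap 4930524O07Rik and Dcaf1. These libraries do not keep the strand. Opposite-strand genes also overlap exons of Ssr2 (Gm10704), Surf4 (Surf2), Sec23a (Gm17529), Syvn1 (Mrpl49), Dnajb9 (Mir5627) and Eif2ak3 (Gm43292). Their part in the values was not tested.

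Hspa5 (BiP), the central Hsp70 chaperone of the ER and the gene most used as a sign of ER stress, measured 238, 301 and 294 FPKM in the controls against 170.2, 129.97 and 160.4 FPKM in the mutants. All mutants lay below all controls, with a log2 fold change of -0.85 ± 0.19 (limma adjusted p = 0.068). Over the 17 alternative settings the log2 fold change of Hspa5 ran from -0.96 to -0.48. Calr, the lectin chaperone calreticulin of the ER lumen, measured 204, 213 and 280.1 FPKM in the controls against 149, 133 and 121 FPKM in the mutants, again without overlap (-0.78 ± 0.19, limma adjusted p = 0.0935). Its membrane-bound relative Canx (calnexin) measured 108 ± 12.5 and 75.98 ± 1.77 FPKM in controls and mutants (mean ± SD, n = 3), also without overlap (-0.50 ± 0.17, limma adjusted p = 0.217). Of these 3 and Hsp90b1, the 4 most abundant chaperones in controls, all had separate groups and 1 passed the test. Among all genes tested 9.4% had mutants below all controls and 0.465% fell.

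The other chaperone genes were less abundant and their groups overlapped. Creld2, an ER stress-inducible protein that takes part in the folding of matrix proteins, measured 50.6, 59.4 and 71.9 FPKM in the controls against 23.5, 21.04 and 53.1 FPKM in the mutants. Mutants 1 and 2 stood below all controls, whereas mutant 3 was within their range (-0.99 ± 0.33, limma adjusted p = 0.21), and without mutant 3 Creld2 was called. Sdf2l1, a partner of BiP complexes, ranged from 4.64 to 22.6 FPKM in controls alone, wider than in mutants (-0.74 ± 0.50). The BiP co-chaperones Dnajb11 (38.7 ± 9.43 and 34.9 ± 5.98 FPKM in controls and mutants), Dnajc3 (24.6 ± 1.39 and 22.5 ± 2.09 FPKM) and Dnajb9 (12.4 ± 5.09 and 16.4 ± 4.48 FPKM) had log2 fold changes of -0.13, -0.13 and 0.40. Hyou1 (GRP170), the nucleotide exchange factor of BiP, measured 7.25 ± 0.3996 and 7.44 ± 1.05 FPKM, near the background range. For Sdf2l1 and these 4 the limma adjusted p lay between 0.609 and 0.979.

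**Figure D2:**
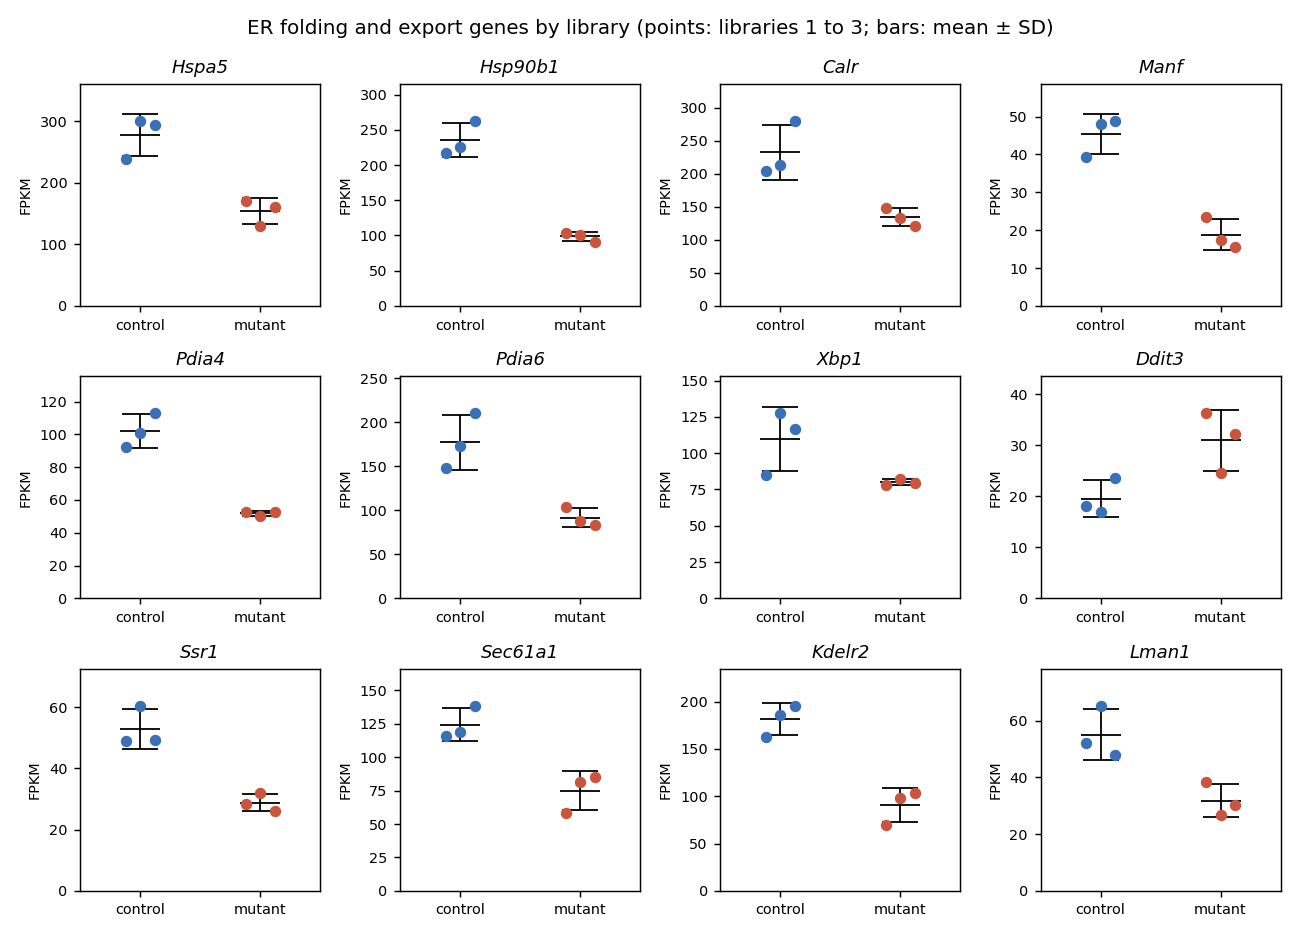
FPKM of 12 of the genes in each library (vertical axes from 0), with controls in blue, mutants in red, libraries 1 to 3 from left to right, and the mean ± SD in black. The groups are apart for the chaperones, isomerases, translocon and retrieval genes shown, with Hsp90b1 at 218 to 263 FPKM in controls and 91.1 to 104 in mutants, whereas Ddit3 is higher in all mutants.

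Of the 4 disulfide isomerases, 1 fell and all had negative fold changes (0.465% and 49.9% of all genes tested), with a median of -0.91. Pdia4 (ERp72), which works in complexes with BiP and GRP94, lies at chr6:47796141-47813430 on the minus strand and measured 92.4, 101 and 113 FPKM in the controls against 52.7, 50.2 and 52.8 FPKM in the mutants. The mutants were nearly equal to each other and lay below all controls (-0.96 ± 0.17, limma adjusted p = 0.0374). Pdia6 (P5), a partner of BiP that also acts on the stress sensors, measured 148, 173 and 210.5 FPKM in the controls against 104, 87.9 and 83.3 FPKM in the mutants, without overlap (-0.93 ± 0.19, limma adjusted p = 0.0598). Pdia3 (ERp57), which forms disulfides in glycoproteins bound to calnexin and calreticulin, measured 225 ± 32.9 and 143 ± 28.6 FPKM in controls and mutants, without overlap (-0.66 ± 0.21, limma adjusted p = 0.188). Over the 17 alternative settings the log2 fold change of Pdia3 ran from -0.79 to -0.056, so its size depended on the setting. Pdia5 was less even, with 26.1, 17.9 and 34.9 FPKM in the controls against 7.4, 26.4 and 11.5 FPKM in the mutants. Mutants 1 and 3 were below all controls, and mutant 2 was within their range.

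The call of Pdia4 was lost in more than one setting. Dropping control 1, 2 or 3 gave an adjusted p of 0.105, 0.126 and 0.0741, dropping mutant 1 or 2 gave 0.132 and 0.109, and testing with no filter on low values gave 0.0507. With the Xist-positive controls left out its log2 fold change was -1.11, against control 3 alone, the highest control for Pdia4. Xist as a covariate gave -1.10 ± 0.22 (adjusted p = 0.189). The muscle covariate gave -0.96 ± 0.38 (adjusted p = 0.746). Exons of Pdia3 and Pdia6 overlap the opposite-strand genes Catsper2 and Atp6v1c2, which measured 2.39 to 7.52 and 1.54 to 5.64 FPKM.

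Genes of ER-associated degradation, which retrieves misfolded proteins for the proteasome, had fold changes near 0. None of the 4 was called, 3 were negative, and the median log2 fold change was -0.11. Herpud1, a stress-induced scaffold of the degradation complex whose promoter holds the ERSE-II shown above, measured 61.1, 58.5 and 54.1 FPKM in the controls against 50.7, 65.5 and 82.5 FPKM in the mutants. The groups overlapped, and the highest value was in a mutant (0.17 ± 0.21, limma adjusted p = 0.813). The ubiquitin ligase Syvn1 (HRD1) and its partner Sel1l measured 12.2 ± 3.66 and 11.1 ± 2.04 FPKM and 22.6 ± 6.01 and 20.4 ± 5.25 FPKM in controls and mutants, with log2 fold changes of -0.09 and -0.14. Edem1, a lectin that marks glycoproteins for degradation, measured 15.5 ± 1.23 and 12.5 ± 1.101 FPKM and was the member of the group whose mutants lay below all controls (-0.28 ± 0.20, limma adjusted p = 0.619). Over the 17 alternative settings the log2 fold change of Edem1 ran from -0.35 to -0.0018. Of 22 other tested degradation genes none was called, the median was -0.04 and 13 were negative. The 2 with the smallest p were Sel1l3, a relative of Sel1l, at 3.81 ± 1.93 and 9.33 ± 3.09 FPKM (limma adjusted p = 0.183), and the conjugating enzyme Ube2j1 at 23.6 ± 1.78 and 16.5 ± 4.26 FPKM (adjusted p = 0.365). The control values of Sel1l3 lay below the background range.

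Among the 9 stress sensors and factors none was called, 5 were positive and 4 negative, and the median log2 fold change was 0.08. That median is the value of Ern1, and all the positive genes but Ddit3 had mean levels under the background gauge. Ddit3 (CHOP), a transcription factor induced late in the PERK and Atf4 branch and linked to cell death, measured 18.1, 16.9 and 23.7 FPKM in the controls against 36.3, 24.5 and 32.2 FPKM in the mutants. All mutants lay above all controls, although mutant 2 exceeded control 3 by a small margin, and the difference did not pass (0.63 ± 0.22, limma adjusted p = 0.236). Its promoter window held none of the elements searched. Xbp1, the factor activated by Ern1 through splicing of its mRNA, measured 84.9, 128 and 117 FPKM in the controls against 78.04, 82.1 and 79.7 FPKM in the mutants. All mutants were below the lowest control, by a small margin (-0.43 ± 0.20, limma adjusted p = 0.374). The values do not separate its spliced from its unspliced form.

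Atf4, the main factor of the integrated stress response, measured 83.2, 57.7 and 86.5 FPKM in the controls against 70.4, 94.5 and 49.6 FPKM in the mutants, with the groups overlapping (-0.11 ± 0.27, limma adjusted p = 0.913). The ER-anchored factors Creb3l1 (OASIS) and Creb3l2 (BBF2H7) belong to the same protein family as Atf6 and are known from mouse knockouts for their part in bone and cartilage secretion. Creb3l1 measured 45.5 ± 3.49 and 39.2 ± 8.49 FPKM in controls and mutants, with overlap (-0.23 ± 0.21, limma adjusted p = 0.732). Creb3l2, known in mice to control Sec23a, measured 7.61, 7.66 and 7.23 FPKM in the controls against 3.81, 6.14 and 4.88 FPKM in the mutants. Its mutants lay below all controls, near the background range (-0.53 ± 0.25, limma adjusted p = 0.391). The sensors were low: Atf6 at 4.197 ± 0.667 and 4.91 ± 0.172 FPKM, Eif2ak3 at 5.04 ± 2.66 and 5.17 ± 0.384 FPKM and Ern1 at 2.099 ± 0.603 and 2.32 ± 0.925 FPKM. Trib3, a target of Ddit3 that feeds back on the response, measured 2.46 ± 1.86 and 2.86 ± 1.001 FPKM. For these 4 the limma adjusted p lay between 0.824 and 0.955, and their mean levels lay under that of the olfactory receptor gauge (6.49 FPKM).

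Of 21 tested targets of the integrated stress response, which overlap the PERK branch, 1 rose and none fell, with 15 negative and a median of -0.28. Of all genes tested 0.775% rose, 0.465% fell and 49.9% were negative. The one that rose was Cebpb, a factor of many responses including inflammation, from 8.21 ± 2.17 to 34.6 ± 18.5 FPKM (1.85 ± 0.36, limma adjusted p = 0.0496). Among the alternative settings it was called with quantile normalization and with a filter at 5 FPKM, and not with the others tried, those that leave out 1 library included, with an adjusted p from 0.0251 to 0.899 over these settings. With the muscle covariate its log2 fold change was 0.80 ± 0.75. The control values of Cebpb, 10.6, 6.415 and 7.58 FPKM, lay within or near the background range. Exons of Cebpb overlap Tmem189 on the opposite strand.

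**Figure D3:**
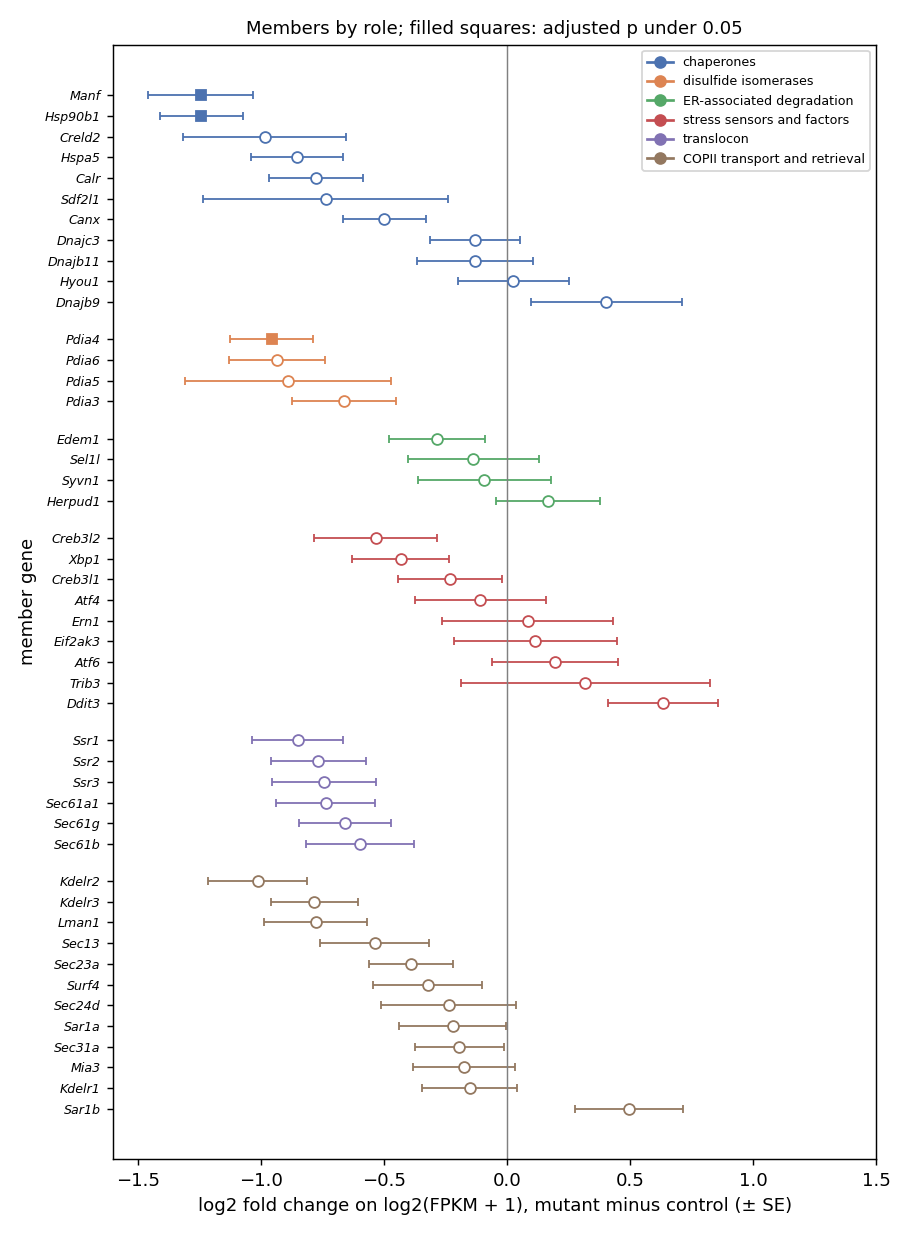
Log2 fold changes (horizontal axis, mutant minus control on log2(FPKM + 1), with the SE) of the 46 genes, grouped and coloured by role and ordered within each group. Filled squares mark the 3 genes that passed, Manf, Hsp90b1 and Pdia4, the 6 translocon genes lie between -0.85 and -0.60, and the stress sensors and factors lie on both sides of 0.

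All 6 translocon genes had negative fold changes and mutants below all controls, and none passed the test. Their log2 fold changes lay close together, from -0.85 to -0.60, with a median of -0.74, and all 6 had an unadjusted p below 0.05. Of all genes tested 49.9% were negative, 9.4% had mutants below all controls and 6.11% were lower at an unadjusted p below 0.05. At a mean of 100 FPKM or more, 21.9% of all tested genes had mutants below all controls. Ssr1, a subunit of the translocon-associated protein complex that aids the entry of some signal sequences, measured 49.1, 60.5 and 49.3 FPKM in the controls against 28.5, 31.9 and 26.2 FPKM in the mutants (-0.85 ± 0.18, limma adjusted p = 0.0646). The highest mutant was far below the lowest control. Sec61a1, the pore of the channel, measured 116, 119 and 139 FPKM in the controls against 58.3, 81.4 and 85.5 FPKM in the mutants (-0.74 ± 0.20, limma adjusted p = 0.127). Its lowest value was in mutant 1. Ssr2 and Ssr3, subunits of the same complex as Ssr1, measured 212 ± 23.1 and 125 ± 23.2 FPKM and 160.4 ± 18.5 and 96.8 ± 23.9 FPKM in controls and mutants (limma adjusted p of 0.1 and 0.143).

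The small channel subunits Sec61b and Sec61g were the most abundant of the 46 genes in controls, at 331 ± 89.8 and 213 ± 12.9 FPKM and 293 ± 48.9 and 184 ± 17.9 FPKM in controls and mutants (limma adjusted p of 0.251 and 0.139). Of their 50-base words, 41% and 20.5% occur in transcripts of other genes, so that reads may be divided with these copies and their values are uncertain. For Sec61a1 the share was 14.6%, and its exons overlap Gm44170 on the opposite strand. In the same mutants the summed chondrocyte markers were lower and the summed muscle markers higher, as given above, and their part in these values was not tested.

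Transport genes of the COPII coat and of retrieval had mostly negative fold changes of unlike size. Of 12, none was called, 11 were negative (49.9% of all genes tested), and the median log2 fold change was -0.28. In 5 the mutants lay below all controls and in 1 above them (9.4% and 9.77% of all genes tested). The receptors that return KDEL-bearing chaperones had unlike values. Kdelr2 measured 163, 186 and 196 FPKM in the controls against 70.03, 98.1 and 103 FPKM in the mutants, without overlap (-1.01 ± 0.20, limma adjusted p = 0.0519). Kdelr3, whose promoter holds the UPRE shown above, measured 235, 231 and 222 FPKM in the controls against 114, 133 and 155 FPKM in the mutants. The coefficient of variation of the controls was 3.003%, and the mutants lay below them (-0.78 ± 0.18, limma adjusted p = 0.073). Exons of Kdelr3 overlap the opposite-strand gene Ddx17. Kdelr1 measured 58.1 ± 7.46 and 52.2 ± 7.196 FPKM in controls and mutants, with overlap (-0.15 ± 0.19, limma adjusted p = 0.811). The differences between the 3 receptors' fold changes were not tested.

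Lman1 (ERGIC-53), a lectin that carries glycoproteins to the Golgi, measured 51.96, 65.3 and 48.04 FPKM in the controls against 38.3, 26.7 and 30.3 FPKM in the mutants, with mutants below all controls (-0.78 ± 0.21, limma adjusted p = 0.121). Over the 17 alternative settings the log2 fold change of Lman1 ran from -0.92 to -0.29. Of the coat itself, the inner-layer subunit Sec23a, whose loss causes cranio-lenticulo-sutural dysplasia in humans, measured 39.7 ± 2.44 and 29.99 ± 1.58 FPKM in controls and mutants, without overlap (-0.39 ± 0.17, limma adjusted p = 0.352). The outer-layer subunits Sec13 and Sec31a measured 191 ± 43.4 and 129.97 ± 20.1 FPKM and 55.5 ± 2.47 and 48.7 ± 6.95 FPKM (adjusted p of 0.313 and 0.739), Sec13 with overlap and Sec31a with mutants below all controls by a small margin. Sec24d, the cargo-binding subunit tied to collagen export, measured 37.2, 27.6 and 42.5 FPKM in the controls against 20.8, 30.6 and 41.05 FPKM in the mutants. Its groups overlapped widely.

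Mia3, the receptor that links procollagen to the coat, measured 9.903, 12.1 and 12.3 FPKM in the controls against 10.1, 10.5 and 9.29 FPKM in the mutants, with overlap (-0.17 ± 0.21, limma adjusted p = 0.803). The GTPases that start coat assembly pointed in different directions. Sar1b, the paralog that also serves lipoprotein export, measured 49.3, 44.9 and 59.02 FPKM in the controls against 66.7, 93.7 and 59.4 FPKM in the mutants, with all mutants above all controls, mutant 3 only just (0.49 ± 0.22, limma adjusted p = 0.359). Its log2 fold change became -0.32 ± 0.40 with the muscle covariate. Sar1a measured 139 ± 32.7 and 118 ± 17.7 FPKM in controls and mutants (-0.22 ± 0.22, limma adjusted p = 0.749), and the cargo receptor Surf4 194 ± 49.8 and 152 ± 21.3 FPKM (-0.32 ± 0.22, limma adjusted p = 0.617), both with overlap.

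The fold changes were also read against level. The 14 genes with a mean of at least 100 FPKM over the 6 libraries had a median log2 fold change of -0.76, and 11 of them had mutants below all controls. Of all 816 tested genes at that level, 21.9% had mutants below all controls, 2.7% fell, and the median log2 fold change was -0.05. The 11 genes with a mean below 20 FPKM had a median of 0.03, and 2 had mutants below all controls. The share at any level was 9.4% of all genes tested, and that of all genes below 20 FPKM was not computed. At such levels counting error is larger, so that differences of the size seen in abundant chaperones may not have been detectable. Its part in these values was not tested.

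The wider pathway was described with 7 further lists of 165 tested genes in all, of which none fell and 1, Cebpb, rose (0.465% and 0.775% of all genes tested). Of these 127 were negative (49.9% of all genes tested) and the median log2 fold change was -0.30. Mutants lay below all controls in 58 and above them in 7 (9.4% and 9.77% of all genes tested). Among 24 other chaperones and prolyl isomerases 21 were negative (median -0.37). The 2 with the smallest p were Fkbp11, a prolyl isomerase of secretory cells, at 179.6 ± 41.1 and 73.7 ± 35.997 FPKM in controls and mutants (limma adjusted p = 0.0928), and Serpinh1 (HSP47), the chaperone of procollagen, at 334 ± 60.3 and 203 ± 19.8 FPKM (adjusted p = 0.119). Among 19 other oxidoreductases 16 were negative (median -0.42). P4hb, the founding disulfide isomerase and a subunit of the collagen prolyl hydroxylase, measured 367, 471 and 479.8 FPKM in the controls against 214, 237 and 259 FPKM in the mutants, without overlap (limma adjusted p = 0.0587). Creld1, a relative of Creld2, measured 6.05 ± 0.6303 and 13.5 ± 1.75 FPKM with mutants above all controls (limma adjusted p = 0.0614). The control values of Creld1 lay within or below the background range.

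Targeting, signal cleavage and glycosylation gave 26 of 30 negative (median -0.36). The 2 leading genes, Rpn1 and Ostc, are parts of the oligosaccharyltransferase that attaches N-glycans, at 78.9 ± 9.32 and 43.6 ± 6.77 FPKM and 227 ± 22.7 and 139 ± 17.3 FPKM in controls and mutants (limma adjusted p of 0.073 and 0.103). Other COPII genes and cargo receptors gave 25 of 36 negative (median -0.19), led by the fusion factors Scfd1 (44.7 ± 5.74 and 29.7 ± 0.104 FPKM, limma adjusted p = 0.185) and Sec22b (101 ± 5.61 and 70.6 ± 4.71 FPKM, adjusted p = 0.192). The COPI coat, which runs the return route from the Golgi, gave 12 of 14 negative (median -0.52), led by Copg2 (122 ± 46.8 and 47.1 ± 3.15 FPKM, limma adjusted p = 0.0517) and the GTPase Arf4 (408 ± 34.9 and 248 ± 45.4 FPKM, adjusted p = 0.111). Copg2 has exons that overlap those of the imprinted gene Mest on the opposite strand, which itself fell (266, 291 and 482 FPKM in the controls against 124, 129.6 and 147 FPKM in the mutants, limma adjusted p = 0.0413), so the value of Copg2 cannot be told apart from that of Mest.

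**Figure D4:**
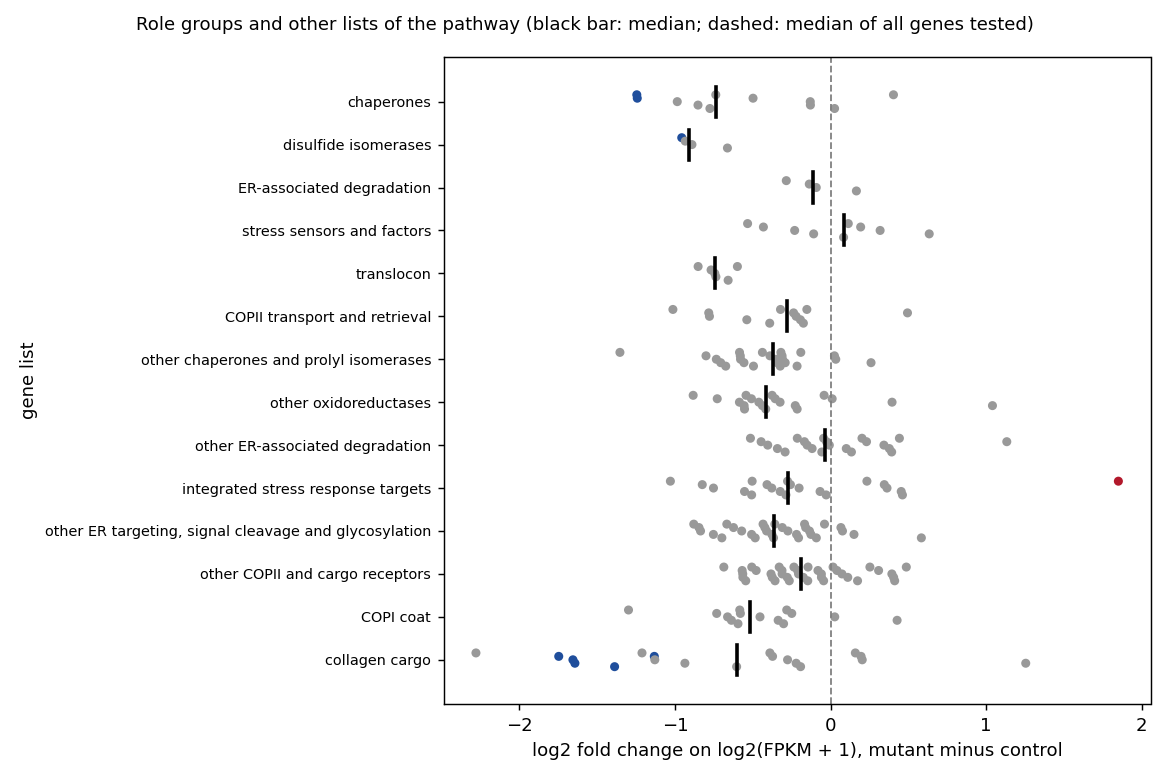
Log2 fold changes (horizontal axis, mutant minus control on log2(FPKM + 1)) of the tested genes of each role group and of the other lists of the pathway (rows), with genes as points, blue and red where they passed with lower and higher values in mutants, black bars for medians and a dashed line for the median of all genes tested. Medians run from -0.91 for the disulfide isomerases to 0.08 for the stress sensors and factors, and collagen genes spread most widely, from -2.28 to 1.25. The value of 0.08 is that of Ern1, a gene under the background gauge.

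The collagens, the main cargo of this machinery, had mostly negative fold changes. Their list shares Col2a1, Col9a1, Col9a2 and Col10a1 with the chondrocyte markers above, and Col1a1, Col1a2 and Col3a1 with the fibroblast and osteogenic layer markers. Of 19 tested collagen genes 5 fell (0.465% of all genes tested) and none rose, 15 were negative, and the median log2 fold change was -0.60. In 10 the mutants lay below all controls and in none above (9.4% and 9.77% of all genes tested). Those that fell were Col9a1, Col9a2 and Col11a1 of cartilage fibrils, the fibril-associated Col12a1 (208 ± 13.7 to 70.5 ± 33.1 FPKM, limma adjusted p = 0.0377) and Col6a3 of the pericellular matrix (117 ± 8.32 to 53.6 ± 13.2 FPKM, adjusted p = 0.0462). Of 17 alternative settings, 13 ended the calls of Col9a1, Col9a2 and Col11a1, 12 that of Col6a3 and 10 that of Col12a1, with adjusted p of up to 0.468 for Col9a1 and Col9a2, 0.649 for Col11a1, 0.786 for Col6a3 and 0.666 for Col12a1. Among them, dropping any single library ended the calls of Col9a1 and Col9a2, any but mutant 2 those of Col11a1 and Col12a1, and any but mutant 3 that of Col6a3. Type I collagen, the most abundant, was named after its values were seen. Col1a1 measured 2152, 1686 and 2429 FPKM in the controls against 1583, 3838 and 2212 FPKM in the mutants and Col1a2 2004 ± 337 and 2370.1 ± 827 FPKM in controls and mutants, with overlap in both (limma adjusted p of 0.848 and 0.827). Summed over the 19 genes, collagen was 6844, 6091 and 8531 FPKM in the controls against 4688, 9428 and 7055 FPKM in the mutants. These ranges overlapped, but without Col1a1 and Col1a2, a sum added after seeing the data, they were 2805, 2666 and 3719 FPKM against 1509, 2350 and 2570 FPKM and did not. The ranges of the chaperones (918 to 1193 and 579 to 629 FPKM), disulfide isomerases (454 to 598 and 274 to 322 FPKM), translocon (1026 to 1355 and 685 to 782 FPKM) and COPII and retrieval genes (1105 to 1386 and 780.1 to 986 FPKM) did not overlap either. The sums of the degradation genes (100.04 to 113 and 88.3 to 136 FPKM) and of the stress sensors and factors (249.7 to 295 and 223 to 269 FPKM) overlapped.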

How the data were processed

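RNA-seq of condylar cartilage gave 3 control and 3 mutant libraries, grouped by their labels. Per the labels' protocols, SMART-Seq HT cDNA was turned into Nextera libraries, which do not keep the strand. The deposited tables, 1 per library, hold FPKM made by the authors. Their headers name no unit: it was taken from the fractional values and the use of Cufflinks. The submitters' processing notes list Cufflinks 2.2.1, TopHat2 2.0.13, SAMtools 0.1.19, Bowtie2 2.2.3 and the build mm10, without settings. The depth of each library is known only in relative terms.

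After a filter that kept 18715 genes (1 FPKM or more in 3 or more libraries), log2(FPKM + 1) was fitted by group with limma-trend and robust empirical Bayes (R 4.3.3, limma 3.58.1). Benjamini-Hochberg adjustment covered every gene in the fit. The procedure was tested on simulated data.

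The 46 genes, the lists and the tests were chosen with earlier results of these data known. Named were genes that passed, the 3 with the smallest p per role group, all stress sensors and factors, genes with separate groups, and per further list the genes that passed or else the 2 with the smallest p. Others were added to account for all 46. Coordinates and overlaps are from GENCODE release M21, promoters from RefSeq. Word sharing used the longest coding transcript. Alternatives covered scaling, weights, filters, pseudocount, moderation, the replicate number, Xist and muscle covariates, and left-out libraries.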

Additional observations from a re-analysis of the deposited data

How the results depend on the processing

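The count of the 46 genes that fell was 3, and 9 with quantile normalization, 8 with a filter at 5 FPKM (43 of the 46 tested), and 0 with either covariate (Xist or muscle markers) or without both Xist-positive controls, where the lone control was assumed to vary like the mutants. Over all genes tested the count was 232, and 411, 440, 2, 2 and 5 in these settings, and 133 with no filter. Leaving out each library gave 0 to 6 of the 46 genes and 13 to 414 of all genes. The fold of summed collagen was 0.986, and 0.699 without type I collagen. No gene of the 46 rose in any of these settings, and 36 to 40 of the 46 fold changes were negative. The 3 calls were kept with median scaling, array weights, a pseudocount of 0.1 and moderation that was not robust. With the replicate number as a block, 0 of the 46 and 2 of all genes passed. The labels do not say whether the numbers pair the libraries. The deviations of same-numbered libraries from their group means correlated at 0.0063, -0.016 and -0.0091, which cannot tell whether they shared a litter or day.

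Direction changed for genes that had not passed: with the Xist covariate Trib3 (-0.37), with the muscle covariate Atf6 (-0.14), Eif2ak3 (-0.33), Sar1b (-0.32), Sel1l (0.25) and Trib3 (-0.024), and without both Xist-positive controls Trib3 (-0.40). With single libraries left out the log2 fold changes ran from -0.25 to 0.68 for Trib3, -0.070 to 0.45 for Eif2ak3, -0.13 to 0.24 for Ern1, -0.35 to 0.033 for Sel1l, -0.33 to 0.13 for Atf4 and -0.0046 to 0.34 for Herpud1. The cause of these differences was not tested.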
